A study of Mus musculus with 2 samples.

Results

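The methionine cycle and its transsulfuration outlet were followed through 10 genes in mouse cerebral cortex: Gnmt, Mat2a, Mat2b, Ahcy, Ahcyl1, Ahcyl2, Mtr, Mtrr, Cbs and Cth. Members were taken by gene symbol, using every probe set whose only symbol was one of these names. This gave 15 probe sets for 9 of the 10 genes, out of 34945 probe sets with 1 gene symbol that cover 18193 genes. Mat2a was not analysed here. The study compared 2 Affymetrix expression arrays. The first held cortex RNA of males aged 4 weeks titled as Gnmt knockouts, and the second held cortex RNA of wild-type males of the same age, both of strain 129/B6. Each was a pool of RNA from 3 mice. The title of the first sample says KO although wild-type is entered as its genotype, and grouping followed the titles. The knockout allele is not described in the sources used here.

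In the methionine cycle, methionine adenosyltransferase makes S-adenosylmethionine (SAM), the methyl donor of the cell. Methyl transfer leaves S-adenosylhomocysteine, which is split to homocysteine and adenosine. Homocysteine is then either methylated back to methionine or condensed with serine and carried into cysteine by transsulfuration. Gnmt, which encodes glycine N-methyltransferase, is best known from liver, where it uses up SAM by methylating glycine to sarcosine.

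Cbs was the member that differed most between the pools. This gene encodes cystathionine beta-synthase, which commits homocysteine to transsulfuration, and its brighter probe set was 2.26-fold lower in the knockout-titled pool. The other 6 members that could be measured lay within 1.5-fold of the wild-type pool by their brightest probe sets. Ahcyl2, encoding a relative of S-adenosylhomocysteine hydrolase, was higher by all 3 of its probe sets, past 1.5-fold by 1 of them. Gnmt itself and the methionine synthase gene Mtr gave signals too low to compare. With 1 array for each group there was no test, and the ratios hold for these pools only.

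Values are linear signal intensities in units scaled by the authors to a common mean. No detection calls were used. A floor of 64.2 units, the 40th percentile of all signals other than controls, took their place, and a gene counted as measured when its brightest probe set reached the floor on both arrays. By this rule 7 of the 10 members and 12 of the 15 member probe sets were measured. Over the whole array, 63.1% of probe sets reached the floor in the knockout-titled pool and 56.9% in the wild-type pool. The log2 ratio is that of the knockout-titled over the wild-type signal, less its median over all measured probe sets, 0.01. As a yardstick, called the probe set error below, the ratios of a gene's brightest and second brightest probe sets were compared over 5375 genes. This gave an SD of 0.58 log2 units for each probe set, or 1.49-fold. That yardstick leaves out the spread between mice and between pools. It pools all signal levels and can also take in real differences between transcripts of a gene. A single probe set 1.5-fold apart is therefore about 1 such SD from 0.

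**Figure D1:**
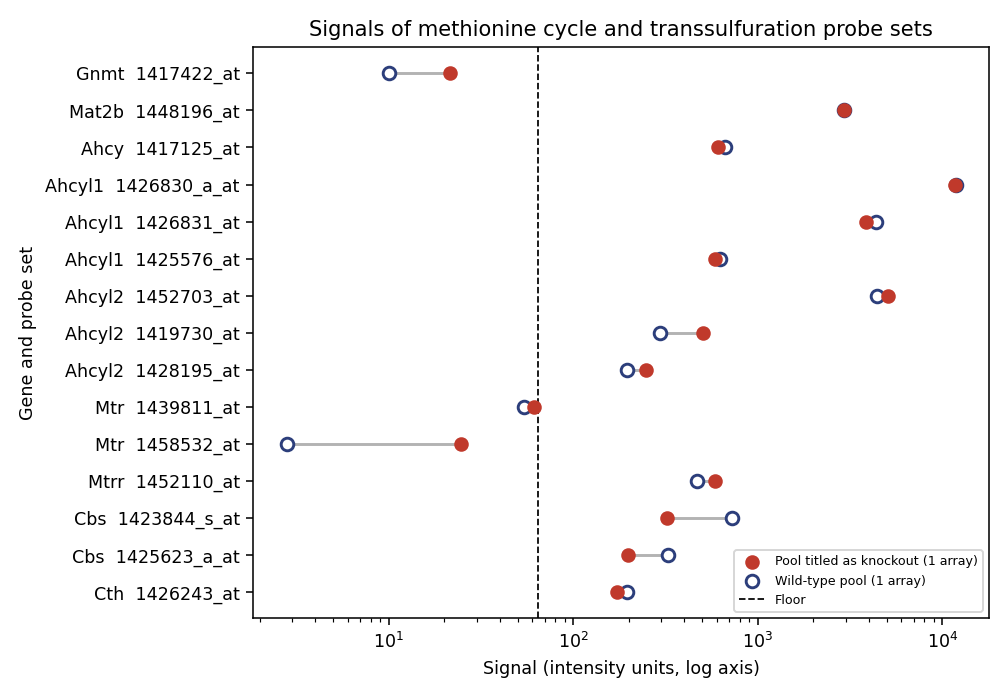
Signal of each member probe set (intensity units, log axis) in the knockout-titled pool (filled points) and the wild-type pool (open points), 1 array each, with the floor of 64.2 units as a dashed line. The 2 Cbs probe sets have their filled points left of the open ones, the 3 Ahcyl2 probe sets have them on the right, and Gnmt and both Mtr probe sets lie below the floor on both arrays.

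Gnmt has 1 probe set on the array, 1417422_at. It gave 21.5 units in the knockout-titled pool and 10 units in the wild-type pool, both below the floor. The signal was not lower in the pool titled as knockout, but at this level it carries no direction, and no ratio is given. The targeted gene therefore could not check the titles of the 2 samples. Whether the probe set lies in the part of Gnmt changed by the allele was not examined, and a probe set outside it may not report the loss.

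At the step that makes SAM, Mat2b differed little between the pools. It encodes the regulatory beta subunit of methionine adenosyltransferase II, the chief form of the enzyme outside liver. Its probe set 1448196_at gave 2914 units in the knockout-titled pool and 2920 units in the wild-type pool. The log2 ratio of -0.01 became 0.14 with quantile normalization and 0.07 with loess, so it had no settled sign.

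The hydrolase Ahcy, which splits S-adenosylhomocysteine and so relieves the inhibition of methyltransferases by that product, also lay near the wild-type level. Probe set 1417125_at gave 605.4 units in the knockout-titled pool and 662.7 units in the wild-type pool, a log2 ratio of -0.14. This is a fraction of the probe set error.

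Ahcyl1 encodes a hydrolase-like protein that binds the inositol trisphosphate receptor rather than serving as a hydrolase of the cycle. Its 3 probe sets were close to the wild-type values. Probe set 1426830_a_at gave 11784 units in the knockout-titled pool and 11807 units in the wild-type pool, with a log2 ratio of -0.01. Probe set 1426831_at gave 3835 units in the knockout-titled pool and 4378 units in the wild-type pool, with a ratio of -0.20. The third, 1425576_at, gave 582.9 units in the knockout-titled pool and 623.9 units in the wild-type pool, with -0.11. The 3 ratios spanned 0.19 log2 units, against a median span of 0.80 over the 1285 genes with 3 measured probe sets. The Ahcyl1 probe sets were thus in closer accord than those of most such genes. Those genes were not matched to Ahcyl1 for signal, and 1426830_a_at and 1426831_at have the same source sequence in the annotation. The ratio of 1426830_a_at turned to 0.27 with quantile normalization and 0.12 with loess, while the ratios of the other two stayed below 0 under both.

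Ahcyl2, the closest relative of Ahcyl1, was higher in the knockout-titled pool by each of its 3 probe sets, by unequal amounts. The brightest, 1452703_at, gave 5054 units in the knockout-titled pool and 4425 units in the wild-type pool, a log2 ratio of 0.18. The next, 1419730_at, gave 505.5 units in the knockout-titled pool and 294.9 units in the wild-type pool, a ratio of 0.77 or 1.70-fold. The dimmest, 1428195_at, gave 247.9 units in the knockout-titled pool and 195.0 units in the wild-type pool, a ratio of 0.33. All 3 stayed above 0 without centring, with quantile normalization and with loess. Of the 1285 genes with 3 measured probe sets, 297 (23.1%) had all ratios above 0, so a common sign is frequent in these arrays. Also, 1452703_at and 1428195_at have the same source sequence in the annotation, so the 3 are not fully separate readings. The probe set past 1.5-fold is 1 of 12 member probe sets, or 8.33%, against 16.5% of all measured probe sets that were at least 1.5-fold higher.

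Homocysteine is methylated back to methionine by methionine synthase, encoded by Mtr, and its cobalamin cofactor is reactivated by the reductase encoded by Mtrr. Neither Mtr probe set was measured. Probe set 1439811_at gave 61.2 units in the knockout-titled pool and 53.8 units in the wild-type pool, just under the floor, and 1458532_at gave 24.7 units in the knockout-titled pool and 2.8 units in the wild-type pool. With the floor at the 25th percentile, 28.8 units, the first would count as measured, with a log2 ratio of 0.13. Mtrr, by its only probe set 1452110_at, gave 585.6 units in the knockout-titled pool and 468.1 units in the wild-type pool. Its log2 ratio of 0.31 was the highest of the 7 measured members by brightest probe sets and lay between 0.31 and 0.36 over the scaling settings. It stayed within the probe set error.

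Transsulfuration holds 2 enzymes, and only the gene of the first was apart between the pools. Cbs probe set 1423844_s_at gave 323.7 units in the knockout-titled pool and 725.2 units in the wild-type pool, a log2 ratio of -1.18. Cbs probe set 1425623_a_at gave 198.7 units in the knockout-titled pool and 327.2 units in the wild-type pool, a ratio of -0.73 or 1.66-fold lower. Both were lower under every scaling, between -1.18 and -1.13 for the first and between -0.88 and -0.72 for the second. Both carry suffixes by which Affymetrix marks probe sets that match several transcripts, so Cbs has no value when such probe sets are left out. The ratio of the brighter probe set is -2.04 in units of the probe set error SD, and 537 of 12244 measured genes (4.39%) had lower ratios.

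Agreement between the Cbs probe sets can be read against other genes. Among the 3282 genes with 2 measured probe sets, 285 had both at least 1.5-fold lower in the knockout-titled pool, as Cbs did, which is 8.68%. The ratios of the Cbs pair were 0.44 log2 units apart, close to the median of 0.42 over those genes. Cbs lies on chromosome 17, as Gnmt does, with 351 protein-coding genes between them in the RefSeq table of assembly GRCm38.p6. Whether this location bears on the Cbs values was not tested.

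Cth encodes cystathionine gamma-lyase, which releases cysteine from the cystathionine made by Cbs. Its probe set 1426243_at gave 173.3 units in the knockout-titled pool and 195.7 units in the wild-type pool. The log2 ratio of -0.19 was within the probe set error and reached -0.42 with quantile normalization.

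By gene, Cbs was the 1 of 7 measured members (14.3%) that was lower by 1.5-fold or more in the knockout-titled pool, and 0 were higher by as much. Over all 12244 measured genes the shares were 18.2% lower and 12.5% higher. By probe set, 2 of 12 were lower by 1.5-fold or more, both of Cbs, against 18.1% of all measured probe sets. Past 2-fold the members left were Cbs alone, 1 of 7, where 6.75% of all genes were lower and 3.47% higher, and its probe set 1423844_s_at, 1 of 12, where 7.01% of all probe sets were lower and 6.95% higher. At 1.5-fold the shares of members were no larger than those of the arrays as a whole, and at 2-fold they rest on this 1 gene. The median log2 ratio of the 7 members was -0.01, beside -0.06 over all measured genes, and it became 0.14 with quantile normalization and 0.07 with loess.

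**Figure D2:**
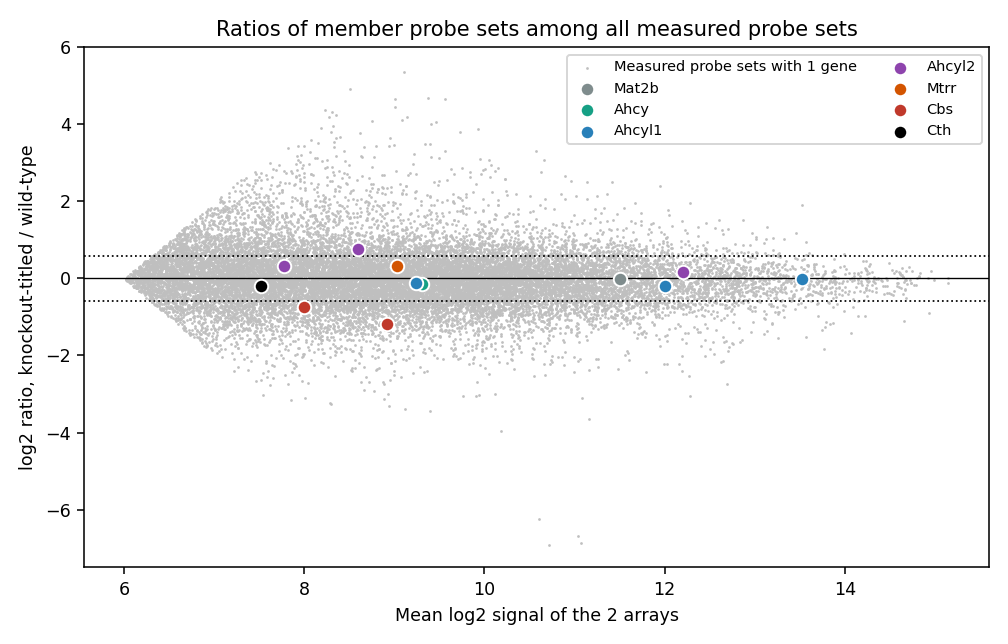
Log2 ratio of the knockout-titled over the wild-type signal against the mean log2 signal of the 2 arrays, for the 20967 measured probe sets with 1 gene (grey) and the 12 measured member probe sets (coloured by gene), with dotted lines at 1.5-fold. The Cbs probe sets, at -1.18 and -0.73, and the Ahcyl2 probe set at 0.77 lie outside the dotted lines, within the spread of grey points at their signal.

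Cbs in brain is known chiefly from astrocytes, and the listed markers of these cells did not all lie on the same side. Of 7 listed astrocyte markers, all measured, 4 passed 1.5-fold downward and 0 upward in the knockout-titled pool, with a median log2 ratio of -0.70. Over all measured genes 18.2% were lower by as much and 12.5% higher. The markers Aldh1l1, Gja1 and Slc1a2 were at 0.03, 0.09 and 0.15 by their brightest probe sets. By the same measure S100b, Aqp4 and Slc1a3 were at -1.23, -1.13 and -0.70. Single dimmer probe sets were far higher, at 3.88 for Slc1a2, 1.66 for Gja1 and 1.60 for Aqp4. Others were lower, down to -1.33 for Aqp4, -1.23 for Gfap, -1.13 for Slc1a3 and -0.92 for S100b. Those of Gja1, Aldh1l1 and Slc1a2 reached down to -0.55, -0.54 and -0.33. Gfap, the intermediate filament gene of astrocytes, gave 674.5 units in the knockout-titled pool and 1567 units in the wild-type pool, a ratio of -1.23. The summed signal of the 7 was 45790 units in the knockout-titled pool and 49539 units in the wild-type pool, since the brightest of them, such as the glutamate transporter gene Slc1a2, differed little. In these bulk pools fewer cells of a type and less RNA per cell cannot be told apart. The part of astrocyte content in the Cbs value was not tested.

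Other cell markers also differed between the pools. Microglia markers had 4 of 7 lower and 1 higher by 1.5-fold or more, beside the same 18.2% and 12.5% of all genes. C1qa, a complement gene, was at -1.81, P2ry12 at -1.30, Tmem119 at -1.21, C1qb at -0.93 and Aif1 at -0.05. The receptor genes Cx3cr1 and Csf1r were at 1.97 and 0.28 by their brightest probe sets. The other Csf1r probe sets lay between -0.70 and -0.05. Cx3cr1 rests on 1 measured probe set, with 87.2 units in the wild-type pool, not far above the floor. The list had a summed signal of 10112 units in the knockout-titled pool and 10983 units in the wild-type pool. Most of it came from Csf1r, with 7830 units in the knockout-titled pool and 6390 units in the wild-type pool. Anterior pituitary hormone genes summed to 726.3 units in the knockout-titled pool and 31370 units in the wild-type pool. Of these, 3 of 7 with a probe set reached the floor in the knockout-titled pool and 6 did in the wild-type pool. Gh, the growth hormone gene, gave 200 units in the knockout-titled pool and 23223 units in the wild-type pool, and Prl, the prolactin gene, gave 9.7 units in the knockout-titled pool and 2351 units in the wild-type pool. Neuronal markers, as the cortex label calls for, were all above the floor on both arrays. By their brightest probe sets 0 of 6 were past 1.5-fold, with Rbfox3 at -0.01, beside 18.2% of all genes lower and 12.5% higher. Dimmer probe sets reached 2.44 for Syt1, with another down to -0.42, and 2.01 for Gad2. The neuronal signals summed to 82619 units in the knockout-titled pool and 86167 units in the wild-type pool. Oligodendrocyte markers had 0 of 4 past 1.5-fold by their brightest probe sets, beside the same shares of all genes, with Mbp at -0.04. A dimmer Cnp probe set was at -0.83. The oligodendrocyte markers summed to 49850 units in the knockout-titled pool and 54102 units in the wild-type pool. Endothelial markers had 0 of 3 past 1.5-fold, beside the same shares of all genes. With Pecam1, below the floor on both arrays, they summed to 1530 units in the knockout-titled pool and 1503 units in the wild-type pool. Choroid plexus markers had 0 of 3 past 1.5-fold, beside the same shares of all genes. Their signals summed to 35258 units in the knockout-titled pool and 38126 units in the wild-type pool. The part of these marker differences in the member values was not tested.

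Beyond the 10 members, 45 genes that feed or drain the cycle were listed, of which 38 were measured. In the knockout-titled pool 2 of these were higher by 1.5-fold or more (5.26%) and 7 were lower (18.4%), beside 12.5% and 18.2% of all genes. Their median log2 ratio was 0.05. In this list too the lower share was near the background and the higher share was below it.

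The branch that carries cysteine on to sulfide, sulfate and taurine had 3 of 8 genes past 1.5-fold, each lower, beside 18.2% of all genes lower and 12.5% higher. Tst, encoding thiosulfate sulfurtransferase, gave 596.9 units in the knockout-titled pool and 1316 units in the wild-type pool, a log2 ratio of -1.15. Cdo1, encoding the cysteine dioxygenase that starts cysteine oxidation, gave 231.0 units in the knockout-titled pool and 472.4 units in the wild-type pool, a ratio of -1.04. Sqor, the mitochondrial sulfide oxidase gene, was at -0.61. The other 5 lay between -0.13 for Ethe1, a persulfide dioxygenase gene, and 0.45 for Suox, the sulfite oxidase gene. Csad, which leads cysteine sulfinate to taurine, was at 0.40. Tst, Cdo1 and Sqor each rest on 1 measured probe set.

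Cysteine supply held the highest ratio of the wider list. Slc7a11, the cystine importer gene, gave 894.2 units in the knockout-titled pool and 203.8 units in the wild-type pool, a log2 ratio of 2.12 or 4.35-fold, and the dimmer of its probe sets was at 1.15. Among genes with 2 measured probe sets, 4.69% had both past 1.5-fold in this direction. Slc1a1, a neuronal transporter of glutamate and cysteine, was at 0.04, and Slc3a1, a partner subunit of amino acid transporters, at -0.38. Genes of glutathione synthesis, which uses cysteine, lay within 1.5-fold by their brightest probe sets. Gclc and Gclm, the catalytic and modifier subunits of glutamate-cysteine ligase, were at 0.30 and 0.24, while their dimmer probe sets were at 1.31 and 1.18. Gss, the glutathione synthetase gene, was at -0.09 and its dimmer probe set at -0.52, opposite in sign to the other genes of this list.

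**Figure D3:**
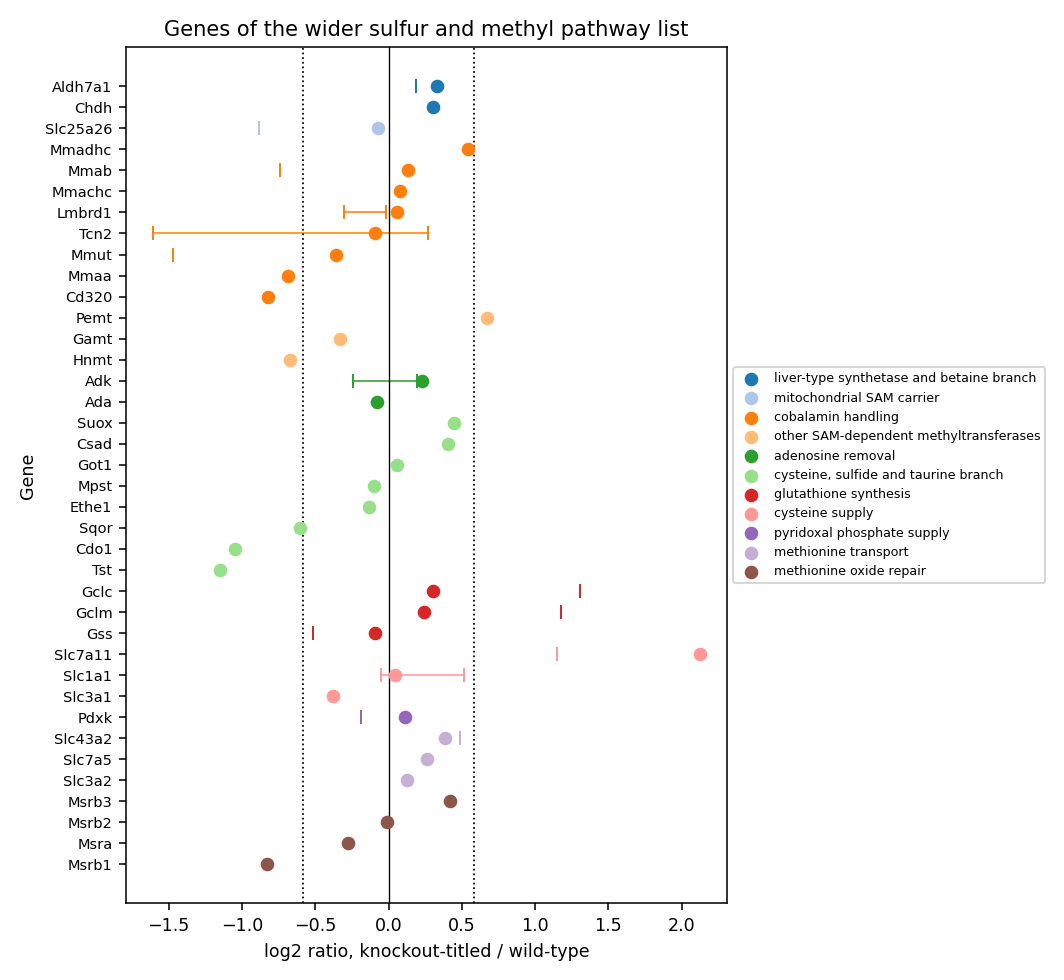
Log2 ratio of the knockout-titled over the wild-type signal for the 38 measured genes of the wider list, coloured by branch, with dots for the brightest probe set, ticks for the lowest and highest of the gene's other measured probe sets, and dotted lines at 1.5-fold. Slc7a11 at 2.12 lies farthest right and Tst at -1.15 and Cdo1 at -1.04 farthest left among the dots.

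Cobalamin handling, on which methionine synthase depends, had 2 of 8 genes past 1.5-fold, each lower, a share of 25% near the 18.2% of all genes that were lower by as much. Cd320, the receptor that takes up transcobalamin-bound cobalamin, gave 232.0 units in the knockout-titled pool and 406.5 units in the wild-type pool, a log2 ratio of -0.82. Mmaa, which serves the mitochondrial cobalamin enzyme, was at -0.69. Mmachc and Mmadhc, which process cobalamin in the cytosol on the way to Mtr, were at 0.08 and 0.54.

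Among other methyltransferases that use SAM, Pemt, which methylates phosphatidylethanolamine, was 1.59-fold higher and Hnmt, which inactivates histamine, was 1.60-fold lower. Pemt rests on 148.1 units in the knockout-titled pool and 92.3 units in the wild-type pool, not far above the floor. Gamt, which makes creatine and is a large user of SAM in the body, was at -0.33. Nnmt, which methylates nicotinamide, was at least 1.40-fold lower in the knockout-titled pool, where it was below the floor.

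The liver-type branch was mostly below the floor in cortex. Mat1a, the liver form of the synthetase gene, gave 20.8 units in the knockout-titled pool and 14.5 units in the wild-type pool. Bhmt, which remethylates homocysteine with betaine, gave 38.0 units in the knockout-titled pool and 65.0 units in the wild-type pool, the second value barely at the floor. Bhmt2 and Dmgdh, the dimethylglycine dehydrogenase gene, were below it on both arrays. Chdh and Aldh7a1, listed as enzymes that make betaine from choline, were at 0.30 and 0.33.

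The remaining groups of the wider list had 1 gene past 1.5-fold by brightest probe sets, beside 18.2% of all genes lower and 12.5% higher. This was Msrb1, a methionine sulfoxide reductase gene and 1 of 4 measured in its group, at -0.83. It gave 475.8 units in the knockout-titled pool and 838.8 units in the wild-type pool. The other sulfoxide reductase genes Msra, Msrb2 and Msrb3 were at -0.28, -0.01 and 0.42. Genes of methionine transport (Slc7a5, Slc3a2 and Slc43a2), adenosine removal (Adk and Ada), pyridoxal phosphate supply (Pdxk) and the mitochondrial SAM carrier (Slc25a26) lay between -0.08 and 0.38 by their brightest probe sets. Dimmer probe sets lay outside this range, at -0.88 for Slc25a26, 0.48 for Slc43a2, -0.19 for Pdxk and down to -0.24 for Adk.

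**Figure D4:**
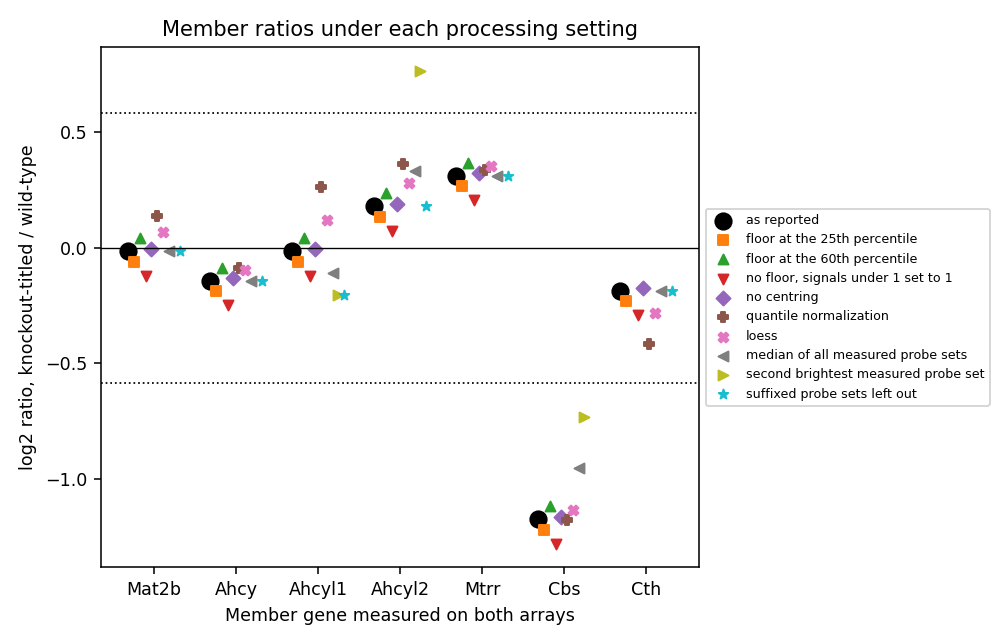
Log2 ratio of the knockout-titled over the wild-type signal for the 7 measured members as reported (large black dots) and under the other processing settings (coloured symbols), with dotted lines at 1.5-fold. Cbs lies below the lower line under all settings that give it a value, from -1.28 to -0.73, and Ahcyl2 crosses the upper line by its second brightest probe set alone.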

How the data were processed

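Per the labels, 5 micrograms of Trizol-extracted total RNA were turned into biotinylated cRNA. Each deposited value is the linear intensity of a probe set on an array. The submitters' processing notes name GCOS, the Affymetrix operating software, whose version and signal algorithm the sources used here do not give. The mean after trimming 2% at either end was 500.0 on both arrays. The medians were 124.9 units in the knockout-titled and 92.0 units in the wild-type array.

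Symbols came from the platform annotation, updated to RefSeq for 34741 of 34945 probe sets with 1 symbol. Another 932 had several symbols and 9160 had none. The brightest probe set, by mean log2 signal, stood for a gene. A gene below the floor on 1 array gets a bound against the floor. With 1 array for each group no test was run, and precision is limited by the number of arrays. Members, lists and rules were chosen with earlier results of these data known. All members are named, and from the wider list those past 1.5-fold and the extremes. Other genes of each branch were chosen after their values were seen. So were the markers Slc1a2, Slc1a3, S100b, Aldh1l1, Gja1, Aqp4, Cx3cr1, Csf1r, P2ry12, Tmem119, C1qb, Aif1, Syt1, Gad2 and Cnp. Calculations were tested on simulated data. Alternatives covered floor, scaling, probe set choice, suffixes and a 2-fold threshold. Tables were handled in Python 3.11.15 (pandas 2.3.3, numpy 2.4.6), loess came from statsmodels 0.14.6 and plots from matplotlib 3.10.9.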

Additional observations from a re-analysis of the deposited data

How the results depend on the processing

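No paired analysis was possible because each group has 1 array. Every member ratio moved by less than the probe set error SD of 0.58 under the alternatives, except that Ahcyl2 was 0.77 by its second brightest probe set. The count of members at least 1.5-fold higher, 0 of 7 as reported, was 1 of 3 by second brightest probe sets. It was 1 of 9 without a floor, where Gnmt was let in. Of all genes, 19.4% and 17.4% were higher by as much under these settings. The count at least 1.5-fold lower was 0 without suffixed probe sets, which removes Cbs, and so was the count of member probe sets. Without a floor 3 of 15 member probe sets were at least 1.5-fold higher, 1 each of Ahcyl2, Gnmt and Mtr. Those of Gnmt and Mtr were below the floor on both arrays, so their ratios carry no direction. The share of all probe sets under this setting was not worked out. At 2-fold, with the floor, 0 of 12 were higher and 1 was lower, beside 6.95% and 7.01% of all measured probe sets. Of the wider list, 1 of 43 genes was at least 1.5-fold higher without a floor, beside 17.4% of all genes. By the median of all probe sets 4 of 38 were higher, beside 12.6%. By second brightest probe sets 3 of 14 were lower, beside 19.1% of all genes. Without suffixed ones 4 of 28 were lower, beside 18.1%. At 2-fold 1 of 38 was higher and 2 were lower, beside 3.47% and 6.75% of all genes. The medians of the members and of the wider list ranged from -0.20 to 0.14 and from -0.12 to 0.13. Both lower ends came from second brightest probe sets, measured for only 3 members and 14 genes of the wider list. Mat2b and Ahcyl1 changed sign with quantile normalization, loess and the higher floor. Ratios of probe sets near the floor are the least certain.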

Other observations

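Probe sets of 1 gene were often far apart in the wider list. Tcn2, which encodes the cobalamin carrier transcobalamin, was at -0.09 by its brightest probe set, with the other 4 between -1.60 and 0.27. Among genes with 2 measured probe sets, Mmut, the mitochondrial cobalamin enzyme gene, was at -0.36 and -1.47. Mmab, the cobalamin adenosyltransferase gene, was at 0.13 and -0.74, and Slc25a26, the mitochondrial SAM carrier gene, was at -0.07 and -0.88. In the other direction Gclc was at 0.30 and 1.31, and Gclm at 0.24 and 1.18. These genes were chosen after their values were seen. Over all 3282 genes with 2 measured probe sets the median distance was 0.42 log2 units and the upper quartile 0.81.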
